A study of Mus musculus with 20 samples.

Results

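The 10 genes described here are markers of the subtypes of cortical GABA interneurons, out of 23413 genes counted in the cortex of aged APOE4 mice. They were chosen by name from a fixed list, and all 10 passed the expression filter that left 15660 genes. Sst, Npy, Vip, Cck and Crh encode neuropeptides, Pvalb, Calb1 and Calb2 encode calcium-binding proteins, Nos1 encodes neuronal nitric oxide synthase, and Reln encodes the secreted protein reelin. RNA was isolated from frozen brain cortex of 20 mice, with 1 library per mouse. All mice carried the APOE4 knock-in, in which the human APOE4 allele replaces mouse Apoe, on a B6(SJL) background, so that the control mice carried it too. They were individually housed from 10 months of age. Isocaloric amounts were fed of a carbohydrate-rich control diet (CD) or of a high-fat, low-carbohydrate ketogenic diet (KD). Tissue was taken after 12 months of feeding, at 22 months, following a fast of about 12 hours. The CD was fed to 5 females and 5 males, and the KD to 4 females and 6 males. The labels write SD for the control diet, and no mice with another APOE allele were analysed here, so no value bears on the APOE4 allele itself.

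Cortical interneurons make GABA and fall into families that are recognised by what else they make. Parvalbumin cells are fast-spiking cells that contact the soma and axon of pyramidal cells. Somatostatin cells contact dendrites, and a small population of them with long-range axons also expresses Npy and Nos1. Vip cells, part of which also express Calb2 or Crh, mainly inhibit other interneurons, and reelin is made by somatostatin cells, by neurogliaform cells and by cells of the outermost layer. None of these transcripts is restricted to cortical interneurons. Cck and Calb1 are also made by cortical pyramidal cells, Calb1 by spiny projection neurons of the striatum, and Sst, Npy, Nos1, Pvalb and Calb2 by striatal interneurons. In whole tissue, a lower value can mean fewer cells of a type or less RNA in each of them, and these cannot be told apart here.

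The study asked about signalling through CREB, a transcription factor that binds the cAMP response element (TGACGTCA) and its half-site CGTCA. Somatostatin is a classical CREB target, so the promoters of the 10 genes were searched for these letters on both strands, over the 250 bases before the RefSeq start (GRCm38.p6). Promoters were found for 7 of the 10 genes. The stretches of 30 bases that hold a match are shown 5′ to 3′ on the strand of the gene, with the matched letters in capitals, for comparison with the expression values.
Sst, chr16:23890874-23890903, minus strand: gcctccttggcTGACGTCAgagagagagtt
Vip, chr10:5639126-5639155, plus strand: gggatcactactgTGACGtctttcggggag
Cck, chr9:121495725-121495754, minus strand: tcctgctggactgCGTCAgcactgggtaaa
Nos1, chr5:117866696-117866725, plus strand: taaaccagccatgCGTCAggcttggcttca
Sst alone had the full element, which began 48 bases before the start and which 1.62% of 27025 promoters contained. The full element contains the half-site on each strand. Half-sites stood at 79 bases before the start in Vip, 47 in Cck and 130 in Nos1, and 17.9% of all promoters had at least 1. No match was found in the windows of Pvalb, Npy and Reln, and the windows of Calb1, Calb2 and Crh were not analysed here. The Nos1 window and the Sst stretch lie inside the span of their genes in the GENCODE annotation, which starts further upstream than RefSeq. A match is a description of letters only. Sst, with the full element, had KD vs. CD log2 fold changes of 0.05 in females and 0.07 in males. For the genes with a half-site these were 1.17 and 1.27 (Nos1), -1.25 and -0.22 (Vip), and -1.21 and -0.24 (Cck). For those without a match they were -0.91 and -0.65 (Pvalb), -0.64 and -0.37 (Npy), and 0.38 and 0.94 (Reln). A relation between the letters and the diet was not tested.

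The lowest count of any of the 10 genes in a library was 46, for Nos1 in CD female E265. Library totals ran from 12207161 to 24674575 counts for the CD and from 13589102 to 25756335 for the KD in females, and from 15931191 to 29109990 for the CD and from 14740328 to 27957243 for the KD in males. The labels name no batch. The mouse numbers in them run from E51 to E68 and from E207 to E265. These ranges were taken as library series 1 and 2, of 10 libraries each. Series 1 was the deeper one (21015275 to 29109990 counts, against 12207161 to 17697342 for series 2), and every group has libraries in both. Levels are given as CPM, the counts of a gene scaled to the total of its library. A count of 3 corresponded to between 0.103 and 0.246 CPM, and this covers counting error only. Replicates are separate mice, and the 41 pairs of mice within groups all differed by more than sampling noise, at a chi-square of 7.25 to 115.2 per degree of freedom.

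The libraries were checked against markers of cortex and of neighbouring tissue before the interneuron genes were compared. The cortical marker Slc17a7, the vesicular glutamate transporter of cortical excitatory neurons, was at 150 to 607 CPM, and the GABA-synthesising enzymes Gad1 and Gad2 were at 397 to 983 and 143 to 911 CPM. In 4 libraries, those labelled KD female E61, E68 and E207 and CD female E249, 9 cortical excitatory markers summed to 337, 373, 417 and 379 CPM, compared with 743 to 1040.5 CPM in the other 16 libraries. In the same 4 libraries, 10 striatal markers summed to 2215, 1999.96, 2662 and 939.9 CPM, and 6 markers of basal forebrain cholinergic neurons to 129, 152, 111 and 90.8 CPM. KD male E59 had a striatal sum of 3297 CPM, a cholinergic sum of 55.6 CPM and a choroid plexus sum of 2341 CPM, of which Ttr made 2187. In the other 15 libraries the striatal sum was from 225 to 569 CPM and the cholinergic sum from 1.11 to 6.60 CPM. The KD males E64 and E254 had the lowest sums of 5 oligodendrocyte markers, 1167 and 1342 CPM, compared with 2077 to 3757 CPM elsewhere, and E64 had the highest hippocampal sum, 101.7 CPM, of which Fibcd1 made 79.4. CD female E228 had 14.01 CPM of the Y-linked gene Ddx3y, whereas the other females had at most 1.64 CPM. These libraries were noticed by their values. The 10 genes were refitted without some of them, and the genes of the other lists were not.

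Per kb of annotated exon, which allows levels to be compared between genes, Cck and Pvalb were the most abundant of the 10, with medians over the 20 libraries of 75.8 and 69.2 CPM per kb. This order did not hold in every library. In the KD females E61, E68 and E207, Cck was at 20.2 to 21.1 and Pvalb at 25.6 to 29.3 CPM per kb. Both were there below Sst, Npy and Calb1 (34.2 to 64.6 CPM per kb). Pvalb, but not Cck, was also below Sst, Npy and Calb1 in other libraries. These were CD female E249 (11.02) and the KD males E64 and E254 (22.2 and 22.4 CPM per kb). By median, Npy (54.4), Sst (46.0), Calb1 (36.6) and Vip (24.6 CPM per kb) followed. Reln (7.34), Calb2 (5.14), Crh (4.14) and Nos1 (1.21 CPM per kb) were lower. Neighbours at the top of this order were not separated beyond their spread, since Cck exceeded Pvalb in 10 of 20 libraries and Pvalb exceeded Npy in 11. Npy exceeded Sst in 15 libraries, Sst exceeded Calb1 in 17, Calb1 exceeded Vip in 19, Vip exceeded Reln in 18, and Crh exceeded Nos1 in 19. Reln exceeded Calb2 in 11 and Calb2 exceeded Crh in 15. The lengths join the exons of all annotated transcripts, so that a gene with many alternative exons, such as Nos1 (11151 bases), is set low by this measure.

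**Figure D1:**
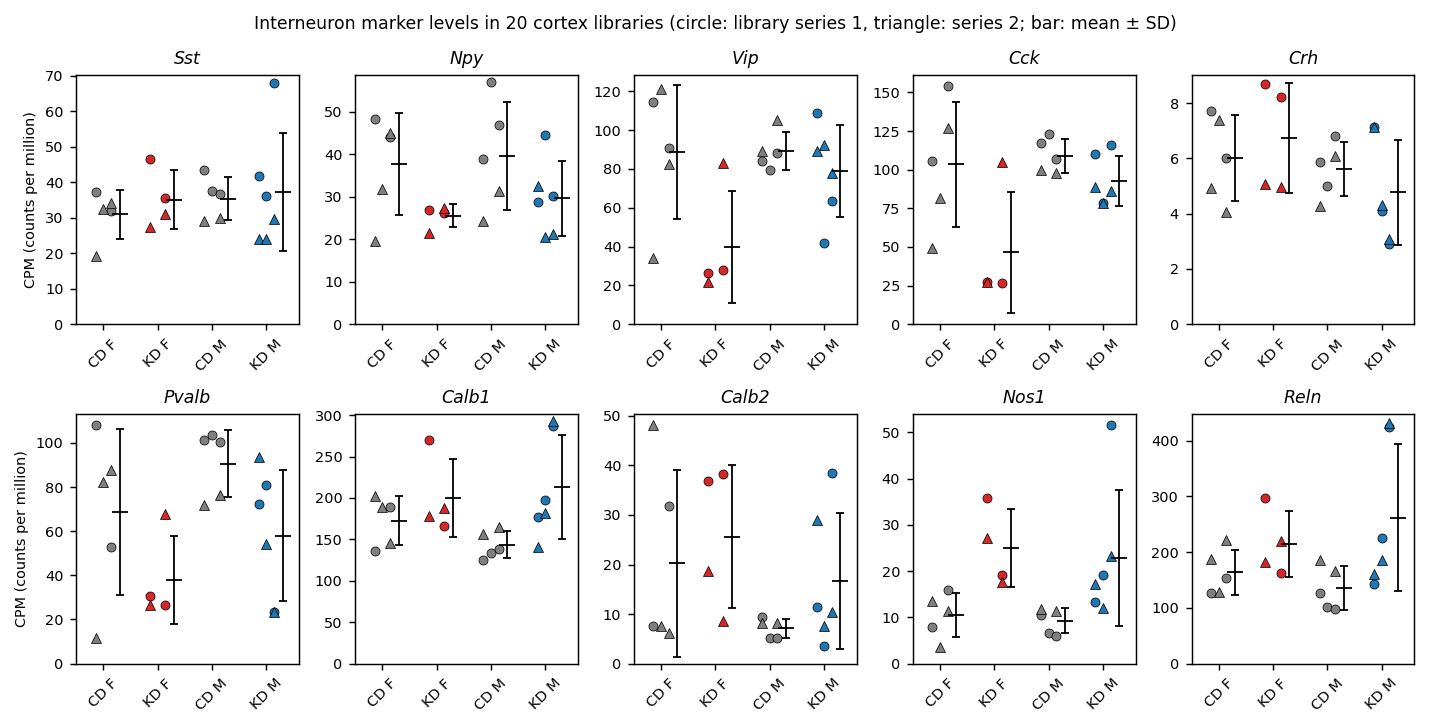
CPM of the 10 genes (y axis, from 0) in the 20 libraries by diet and sex (x axis, F for female and M for male). Circles are libraries of series 1, triangles of series 2, and bars give the mean ± SD of each group. Nos1 lies at 3.65 to 15.8 CPM in CD females and 17.6 to 35.9 CPM in KD females, while Vip, Cck and Pvalb each have 1 KD female far above the other 3.

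Nos1 was the single gene of the 10 that passed the thresholds for a diet effect, and it did so when the effects in females and males were averaged. It was 2.33-fold higher on the KD (log2 fold change 1.22, standard error 0.271, FDR 0.0863 by edgeR's quasi-likelihood test). The thresholds were an FDR of 0.1 after Benjamini-Hochberg adjustment over all 15660 genes and a 1.5-fold change. Of all genes tested, 42 (0.268%) passed them for the averaged effect, 26 of them (0.166%) higher on the KD. In females alone 0 of the 10 genes passed, where 7 of all genes (0.0447%) did, and in males 0 of the 10 and 0 of all genes (0%) did. The same test without adjustment, at p under 0.05, picked 4 of the 10 in females, where it picked 11.4% of all genes, and 3 of the 10 in males, where it picked 3.56%. In females these were 1 higher on the KD (all genes 5.86%) and 3 lower (all genes 5.5%), and in males all 3 were higher (all genes 2.37%). By edgeR's likelihood ratio test and by DESeq2 the counts of the 10 at the FDR threshold were 2 in females, 0 in males and 4 for the averaged effect. Of all genes, the likelihood ratio test called 1.4% in females, 0 in males and 2.36% for the averaged effect, and DESeq2 called 1.62%, 0 and 2.24%. For the averaged effect, 7 of the 10 had an unadjusted p under 0.05 by the quasi-likelihood test, where 13.9% of all genes did: Nos1, Reln and Calb1 with higher values on the KD (all genes 7.41%), and Npy, Cck, Vip and Pvalb with lower ones (all genes 6.44%). The averaged effect draws on the same libraries as the effects in each sex and is no independent support for them.

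**Figure D2:**
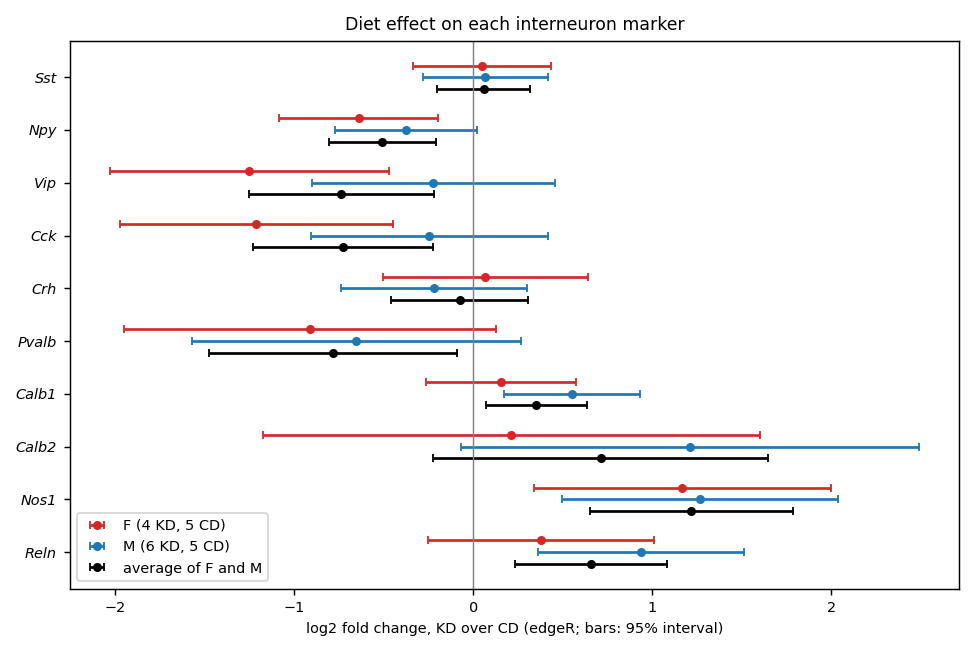
Log2 fold change of KD over CD (x axis) for each gene (y axis) in females, in males and averaged over both, from edgeR, with 95% intervals. For Nos1 the intervals in females, in males and for the average lie above 0, while those of Sst and Crh span 0 throughout.

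Nos1 (chromosome 5 of GRCm38, 117781032 to 117958840, plus strand) makes nitric oxide, a diffusible messenger that acts through guanylate cyclase. It was at 7.99, 15.8, 11.5, 13.6 and 3.65 CPM in the CD females E62, E67, E228, E249 and E265. In the KD females E61, E68, E207 and E227 it was at 35.9, 19.3, 27.2 and 17.6 CPM. The CD males E51, E58, E66, E251 and E264 had 10.5, 6.63, 6.01, 11.9 and 11.4 CPM, and the 6 KD males had from 12.0 to 51.6 CPM with a median of 18.2. Every KD library was thus above every CD library of the same sex, although in males the nearest of them were 11.9 and 12.0 CPM. Among all genes tested, KD and CD libraries did not overlap for 1.81% in females and for 0.243% in males, and for 4 genes (0.0255%) in both sexes with the same direction. With the KD libraries on the higher side, as for Nos1, these shares were 1.12%, 0.102% and 0.0128%. The other genes were Otof, higher on the KD, and Gcnt4 and F930015N05Rik, lower on the KD, which were named for this pattern.

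The mean level of Nos1 was 25.0 ± 8.40 CPM (mean ± SD, n = 4) in KD and 10.5 ± 4.80 CPM (mean ± SD, n = 5) in CD females. The log2 fold change was 1.17 (standard error 0.397, FDR 0.255 by edgeR). In males it was 22.8 ± 14.7 CPM (mean ± SD, n = 6) on the KD and 9.29 ± 2.77 CPM (mean ± SD, n = 5) on the CD, and the log2 fold change was 1.27 (standard error 0.368, FDR 0.9998 by edgeR). On log2 CPM, a two-sided exact permutation test returned p = 0.0159 over the 126 splits of the females and p = 0.00866 over the 462 splits of the males. These splits ignore the library series, and the smallest p they allow are 0.00794 and 0.00216. Over the geometric mean of Gad1 and Gad2, the log2 difference of Nos1 was 0.63 in females (exact permutation p = 0.310) and 1.20 in males (exact permutation p = 0.0152).

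The call for Nos1 was not stable to the choice of libraries or to the model. With all 20 libraries the averaged FDR by edgeR was 0.110 without a filter on low counts, 0.401 with the cortical excitatory score in the model and 0.454 with the striatal score, with log2 fold changes of 1.21, 1.02 and 1.12. Its averaged log2 fold change was 1.48 within library series 1 (FDR 0.0586 by edgeR) and 0.88 within series 2 (FDR 0.9997). With 1 library left out it was from 1.03, without KD male E64, to 1.32, without CD female E67, and it lost the FDR threshold in 14 of 20 such fits (FDR from 0.0129 to 0.268). Without the KD males E64 and E254, which had 51.6 and 23.2 CPM, it was 0.96 (FDR 0.198 by edgeR), and without E59 as well it was 0.90 (FDR 0.469). In males alone the value was 0.73 without E64 and E254, 0.61 without E59 as well, 1.81 within series 1 and 0.59 within series 2. Without KD female E227 and CD female E249 it was 1.34 (FDR 0.00472 by edgeR), and in females alone 1.41 (FDR 0.0445). The libraries E227 and E249 were picked by their values, so these FDRs do not test the diet. The annotation places 2 other genes over Nos1, one of which, Gm26995 on the opposite strand, shares exonic bases with it. Since the strand that was counted is not given in the sources used here, reads of that gene could be among the counts of Nos1.

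**Figure D3:**
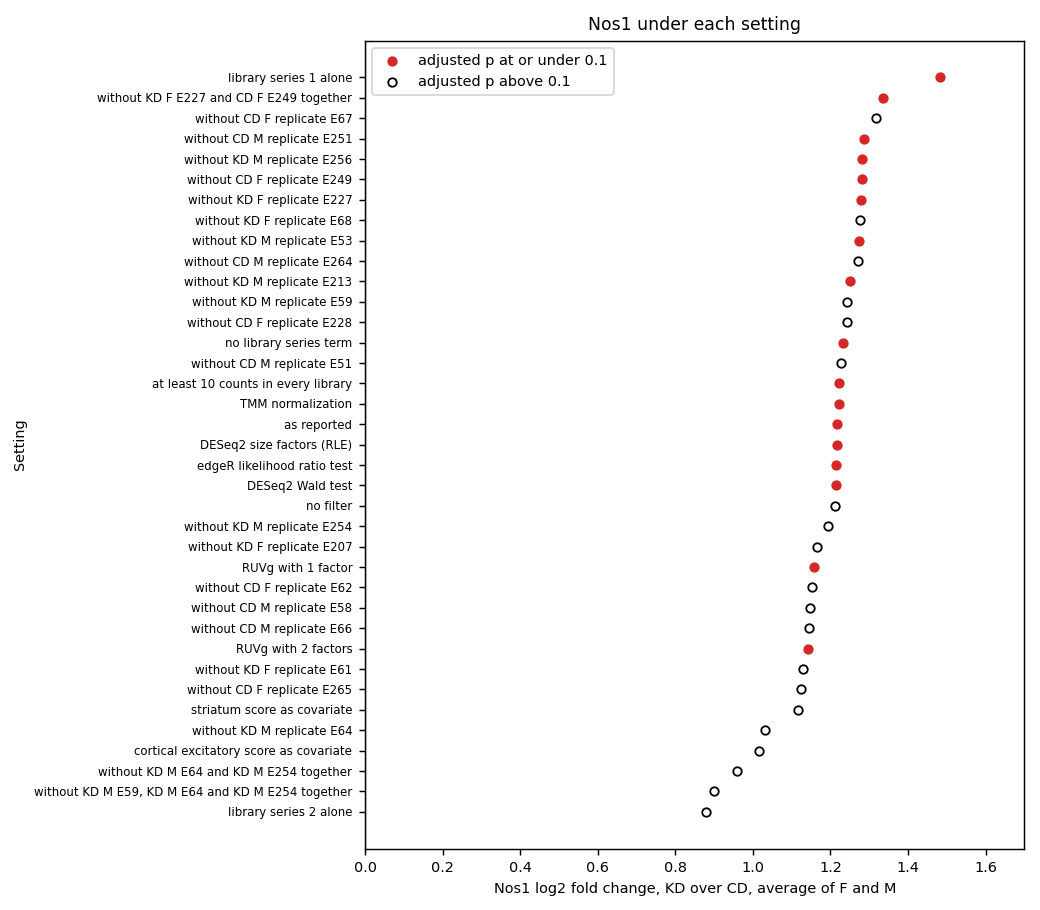
Averaged log2 fold change of Nos1, KD over CD (x axis), under each way of processing the data (y axis). Filled points have an adjusted p at or under 0.1 and open points above it. Every value is above 0, from 0.88 to 1.48, and 14 of the 20 fits that leave out 1 library are open.

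Reln (chromosome 5, 21884454 to 22344702, minus strand), which encodes the large glycoprotein that signals through Vldlr and Lrp8, had high values in some KD males. It was at 98.4 to 187 CPM in the 5 CD males and at 143 to 431 CPM in the 6 KD males, with a median of 206. The KD males E64 and E254 had 424 and 431 CPM, and the other 4 KD males had 143 to 226 CPM, so that the groups overlapped. The log2 fold change of Reln was 0.94 in males (standard error 0.276, unadjusted p = 0.00303, FDR 0.9998 by edgeR) and 0.38 in females (FDR 0.723). Without E64 and E254 it was 0.40 in males (FDR 0.99995 by edgeR). Without KD female E61 alone it was 0.14 in females. In females Reln was at 127, 154, 221, 187 and 129 CPM on the CD and at 296, 162, 182 and 220 CPM on the KD. The gene Gm10475 shares exonic bases with Reln, which leaves its counts uncertain to that extent.

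Calb1 (chromosome 4, 15881264 to 15908064, plus strand), the gene of calbindin, resembled Reln in males. It was at 125, 134, 138, 156 and 165 CPM in the CD males, and at 141 to 293 CPM in the KD males with a median of 189.8. Again E254 and E64 were the highest, at 293 and 287 CPM, and 1 KD male, E213, lay within the range of the CD males. The log2 fold change was 0.55 in males (standard error 0.182, unadjusted p = 0.00690, FDR 0.9998 by edgeR), and the exact permutation test gave p = 0.0238. Without E64 and E254 it was 0.27 (FDR 0.99995 by edgeR). In females it was 0.15 (FDR 0.866 by edgeR), with 136 to 203 CPM on the CD and 166 to 269 CPM on the KD.

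Vip and Cck were low in the same 3 of 4 KD females. Vip (chromosome 10, 5639218 to 5647617, plus strand), which encodes vasoactive intestinal peptide, was at 26.2, 28.0, 21.7 and 83.2 CPM in the KD females E61, E68, E207 and E227. In the CD females E62, E67, E228, E249 and E265 it was at 115, 90.7, 82.6, 34.2 and 121 CPM. Each diet group thus had 1 library, E227 on the KD and E249 on the CD, with a level like that of the other diet group. The sums of cortical excitatory, striatal and cholinergic markers were 826, 332 and 2.87 CPM in E227, of which the striatal sum was above the 225 to 274 CPM of the CD females other than E249 and the others within their range, and 379, 939.9 and 90.8 CPM in E249. No value here checks the diet labels of these mice, and they were used as given. The log2 fold change of Vip in females was -1.25 (standard error 0.372, unadjusted p = 0.00332, FDR 0.226 by edgeR), and the exact permutation test gave p = 0.0635. In males Vip was at 79.5 to 105 CPM on the CD and at 41.7 to 109 CPM on the KD, with a log2 fold change of -0.22 (95% interval -0.90 to 0.46).

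Cck (chromosome 9, 121489824 to 121495694, minus strand), which encodes cholecystokinin, was at 27.1, 26.4, 27.5 and 105 CPM in the KD females E61, E68, E207 and E227. In the CD females it was at 106, 154, 127, 49.2 and 81.4 CPM in the same order as above. The log2 fold change was -1.21 (standard error 0.364, unadjusted p = 0.00360, FDR 0.226 by edgeR), and the exact permutation test gave p = 0.0556. In males it was -0.24 (95% interval -0.91 to 0.42), with 98.2 to 123 CPM on the CD and 78.2 to 116 CPM on the KD. The 3 KD females with low Vip and Cck, and CD female E249, are the 4 libraries with low sums of cortical excitatory markers and high sums of striatal and cholinergic markers. The part of these markers in the differences of Vip and Cck was not tested apart from covariate fits. With the score of the cortical excitatory markers in the model, the log2 fold change in females was -0.43 for Vip and -0.53 for Cck, and with that of the striatal markers it was -0.30 for Vip and -0.62 for Cck.

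Npy (chromosome 6, 49822710 to 49829507, plus strand), the gene of neuropeptide Y, had its lower values on the KD in both sexes, without reaching the thresholds. In females it was at 26.9, 26.3, 21.6 and 27.5 CPM on the KD and at 48.4, 44.1, 44.9, 19.5 and 31.9 CPM on the CD, so that only E249 of the CD females lay in the range of the KD females or below it. The log2 fold change in females was -0.64 (standard error 0.213, FDR 0.247 by edgeR). In males it was -0.37 (standard error 0.190, FDR 0.9998 by edgeR), with 24.4 to 56.9 CPM on the CD and 20.4 to 44.5 CPM on the KD. Averaged over both it was -0.51 (standard error 0.142, FDR 0.130 by edgeR), the second smallest p among the 10 genes. Npy also differed between the library series within CD males, with 38.8 to 56.9 CPM in series 1 and 24.4 to 31.4 CPM in series 2.

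Pvalb (chromosome 15, 78191114 to 78206400, minus strand) encodes parvalbumin, and it varied widely between mice within groups. It was at 108, 53.1, 87.9, 11.5 and 82.5 CPM in the CD females and at 30.5, 26.6, 26.7 and 67.9 CPM in the KD females, in the orders given for Vip. E249 was the lowest of all 20 libraries and E227 the highest KD female. In males it was at 71.7 to 103 CPM on the CD and at 23.2 to 93.6 CPM on the KD, with E64 and E254 at 23.2 and 23.4 CPM. KD vs. CD, its log2 value was -0.91 in females (standard error 0.495, FDR 0.522) and -0.65 in males (standard error 0.438, FDR 0.9998), both by edgeR. Without E64 and E254 the value in males was -0.27, and without E227 and E249 that in females was -1.65. Both fits left out libraries picked by their values. With the score of the cortical excitatory markers in the model the value in females turned to 0.33, and with that of the striatal markers it was -0.53. The averaged value was -0.78 (standard error 0.332, unadjusted p = 0.0292, FDR 0.290 by edgeR).

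Sst (chromosome 16, 23889573 to 23890958, minus strand), Crh (chromosome 3, 19693401 to 19695396, minus strand) and Calb2 (chromosome 8, 110137502 to 110168210, minus strand) had no unadjusted p under 0.05 in either sex by edgeR. Somatostatin RNA was at 19.1 to 37.2 CPM in CD females, 27.3 to 46.6 in KD females, 29.1 to 43.5 in CD males and 24.0 to 67.8 in KD males. Its averaged log2 fold change was 0.06 (95% interval -0.20 to 0.32), and the highest library was KD male E64. Crh, which encodes corticotropin-releasing hormone, was at 2.92 to 8.70 CPM in all libraries, with an averaged log2 fold change of -0.08 (95% interval -0.46 to 0.31). Calb2, the gene of calretinin, was at 6.10 to 48.1 CPM in CD females, 8.55 to 38.3 in KD females, 5.12 to 9.36 in CD males and 3.58 to 38.4 in KD males. KD vs. CD, its log2 value was 0.21 in females (95% interval -1.17 to 1.60) and 1.21 in males (95% interval -0.07 to 2.49), so that the data allow a change of over 2-fold in either direction in females. Without E64 and E254 the values in males were 0.81 for Calb2 and -0.15 for Sst.

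The difference between the effect of the diet in females and in males was tested as an interaction. By edgeR's quasi-likelihood test 0 of the 10 genes passed the thresholds, as did 0 of all genes (0%), and by the likelihood ratio test and by DESeq2 0 of the 10 and 1 of all genes passed. At an unadjusted p under 0.05, 1 of the 10 passed, where 2.14% of all genes did. This was Vip, whose log2 fold change in females was lower than that in males by a log2 difference of -1.03 (standard error 0.489, unadjusted p = 0.0492, FDR 0.9999 by edgeR). For Cck the difference was -0.96 (95% interval -1.96 to 0.03), and for Nos1 it was -0.10 (95% interval -1.22 to 1.02). Without KD female E227 and CD female E249 the differences were -1.83 for Vip (FDR 0.00291) and -1.97 for Cck (FDR 7.62e-05), both by edgeR. These libraries were picked by their values, those of Vip and Cck included. The FDRs thus describe the libraries and do not test the interaction. Calls among all genes in that fit are given with the processing below.

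Between females and males, averaged over the diets, 0 of the 10 passed by the quasi-likelihood test, by the likelihood ratio test and by DESeq2, where 21 of all genes (0.134%) passed by the first, 286 by the second and 212 by DESeq2. Each test ran on the same 15660 genes. At an unadjusted p under 0.05, 3 of the 10 passed, where 13.6% of all genes did. Calb2 had the higher level in females (log2 difference 1.06, standard error 0.440, FDR 0.305 by edgeR), and Cck and Vip had the lower (log2 differences -0.55 and -0.54, FDR 0.334 and 0.345). Of all genes, 8.59% were higher and 4.96% lower in females at that p. Of the 5 libraries with high striatal and cholinergic sums, 4 were from females and 1, E59, from a male. With the score of the striatal markers in the model the log2 differences were 0.74 for Calb2, -0.37 for Cck and -0.25 for Vip. With the score of the cortical excitatory markers they were 0.11, -0.00658 and 0.0411, so that the direction of Vip turned, and without KD female E227 and CD female E249 they were 0.81, -0.86 and -0.72.

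**Figure D4:**
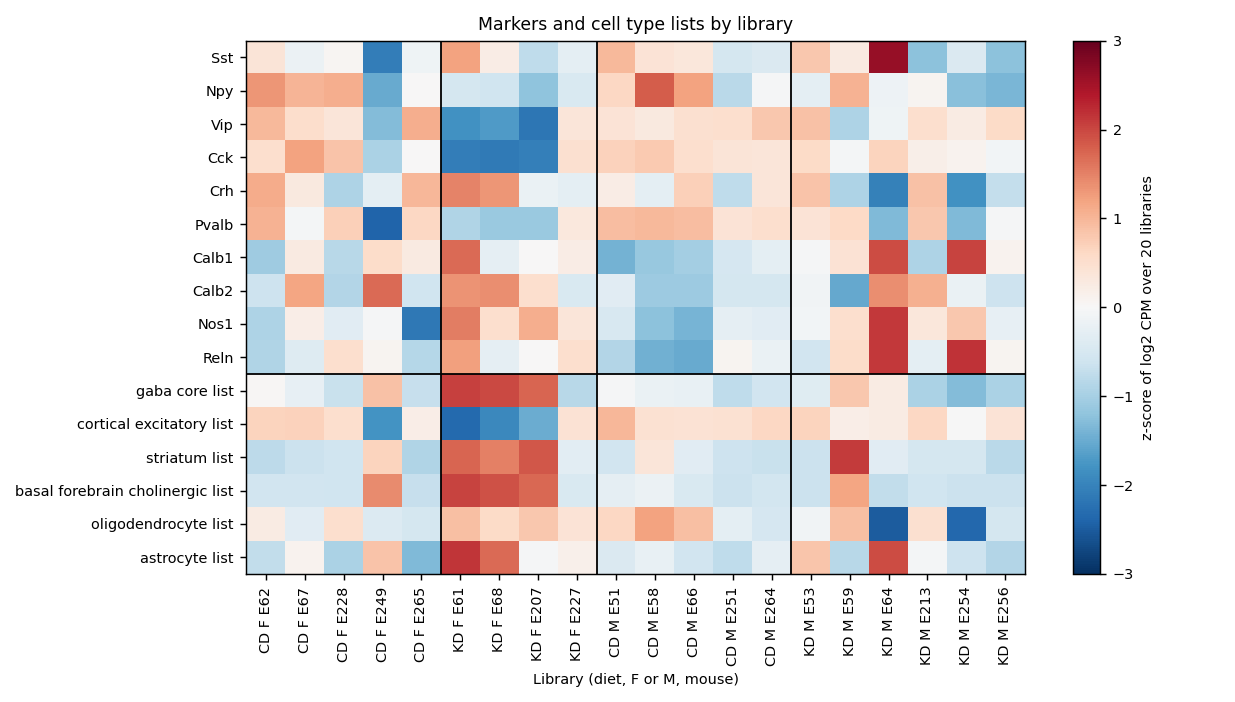
Z-scores of log2 CPM over the 20 libraries (colour) for the 10 genes and for the mean score of 6 marker lists (rows), by library (columns, with diet, sex and mouse). The 4 libraries KD F E61, E68 and E207 and CD F E249 share low Vip and Cck, low cortical excitatory and high striatal and cholinergic scores, and KD M E64 and E254 share high Calb1 and Reln and low oligodendrocyte scores.

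Leaving out E227 and E249 together, the libraries in which the marker pattern ran against that of their diet group, changed the number of calls among the 10 genes. This choice rests on their values, so the counts describe these libraries and do not test the diet. In females 5 of the 10 then passed, namely Vip (log2 fold change -2.04), Cck (-2.20), Npy (-0.90), Pvalb (-1.65) and Nos1 (1.41), and 1953 of all genes (12.2%) did. For the averaged effect 7 of the 10 passed, and 1249 of all genes (7.83%). Without CD female E249 alone 5 of the 10 and 1046 of all genes (6.66%) passed in females, and without KD female E227 alone 3 of the 10 and 906 of all genes (5.68%) did. Within library series 1, which holds 2 CD and 2 KD females, 3 of the 10 and 865 of all genes (5.42%) passed in females, and within series 2, which holds E227 and E249, 0 of the 10 and 0 of all genes did.

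Other genes of GABA neurons were examined in lists chosen for this purpose, and their counts are read beside all genes tested, which had a median log2 fold change of 0.01 for females and 0.00 for males. Of 4 genes for making and moving GABA, 0 passed the thresholds in either sex by edgeR. In females all 4 had values above 0, with a median of 0.67, and 3 had an unadjusted p under 0.05, where 5.86% of all genes were higher on the KD at that p and 5.5% lower. Slc32a1, the vesicular GABA transporter, was at 41.7 ± 22.0 CPM (mean ± SD, n = 4) in KD and 16.1 ± 3.76 CPM (mean ± SD, n = 5) in CD females (log2 fold change 1.14, FDR 0.202 by edgeR). It was at 65.3, 46.3 and 43.3 CPM in the KD females E61, E68 and E207, but at 12.1 CPM in E227. The CD females, with E249 at 18.3 CPM, ran from 10.8 to 19.4 CPM. Gad2 was at 911, 808, 721 and 590 CPM in E207, E68, E249 and E61, and at 143 to 207.1 CPM in the other 5 females. The direction of Gad2 in these libraries was thus opposite to that of Vip, Cck and Pvalb. Striatal spiny neurons also make GABA, and the part of striatal RNA in the GABA genes was not tested.

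Among 14 transcription factors of interneurons, 0 passed in either sex by edgeR, and unadjusted p under 0.05 were found for 2 genes higher and 3 lower on the KD in females (all genes 5.86% and 5.5%) and for 1 higher in males (all genes 2.37%). Lhx6, which is required by Pvalb and Sst cells, was at 27.0 ± 8.42 CPM (mean ± SD, n = 4) in KD and 14.3 ± 4.47 CPM (mean ± SD, n = 5) in CD females (log2 fold change 0.80, FDR 0.194 by edgeR). Satb1 had a KD vs. CD log2 value of -1.02 in females. In males Nr2f2 had the smallest p of the list, at 26.4 ± 21.1 CPM (mean ± SD, n = 6) on the KD and 11.1 ± 4.48 CPM (mean ± SD, n = 5) on the CD (log2 fold change 1.26, FDR 0.9998 by edgeR).

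Of 23 further subtype markers, unadjusted p under 0.05 were found for 4 higher and 4 lower on the KD in females (all genes 5.86% and 5.5%) and for 0 higher and 1 lower in males (all genes 3.56% in either direction), and 0 passed the thresholds by edgeR. Crhbp, the binding protein of corticotropin-releasing hormone and a marker of Sst cells, was at 16.4 ± 4.52 CPM (mean ± SD, n = 4) in KD and 25.3 ± 3.12 CPM (mean ± SD, n = 5) in CD females (log2 fold change -0.68, FDR 0.202 by edgeR). Sncg and Elfn1 had log2 fold changes of 1.36 and 0.72 in females. In males Acan, the core protein of perineuronal nets, had a log2 fold change of -0.40 (unadjusted p = 0.0397 by edgeR). Next by p were Pthlh, with a log2 fold change of 0.52 (unadjusted p = 0.0737 by edgeR), and Lamp5, a marker of neurogliaform cells, with one of -0.58 (unadjusted p = 0.132). In females Lamp5 had a log2 fold change of -1.12 (unadjusted p = 0.0150, FDR 0.307 by edgeR).

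The receptors of the peptides held the only further call for the averaged effect among these lists, Crhr2, a receptor of the corticotropin-releasing hormone family. It was at 1.44 ± 0.578 CPM (mean ± SD, n = 4) in KD and 0.365 ± 0.117 CPM (mean ± SD, n = 5) in CD females, and at 0.994 ± 0.6253 CPM (mean ± SD, n = 6) in KD and 0.517 ± 0.238 CPM (mean ± SD, n = 5) in CD males. The averaged log2 fold change was 1.40 (standard error 0.285, FDR 0.0748 by edgeR). It was not refitted here without single libraries, and its counts were low. The levels of Crhr2 ran from 0.283 to 0.571 CPM in CD females and from 0.242 to 0.879 CPM in CD males. A count of 3 corresponded to between 0.103 and 0.246 CPM over all libraries. Unadjusted p under 0.05 were found for 4 of the 13 receptors in females, 2 in each direction (all genes 11.4%), and for 1, higher on the KD, in males (all genes 2.37%). Cckbr, the cholecystokinin receptor of the brain, was at 21.4 ± 10.1 CPM (mean ± SD, n = 4) in KD and 41.4 ± 14.5 CPM (mean ± SD, n = 5) in CD females, with a log2 fold change of -1.004 (FDR 0.230 by edgeR), in the same direction as its ligand gene Cck. The other cholecystokinin receptor gene, Cckar, was at 0 to 1.47 CPM in CD females and 0.0598 to 2.45 CPM in KD females (FDR 0.358 by edgeR), and no fold is given because part of the libraries were at or under a count of 3. Npy2r had averaged values in the direction opposite to Npy, with a log2 fold change of 1.13 (FDR 0.210 by edgeR).

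Among 9 genes of the reelin and nitric oxide pathways, 0 passed by edgeR in either sex. At an unadjusted p under 0.05 there were 1 higher and 2 lower on the KD in females (all genes 5.86% and 5.5%) and 2 higher in males (all genes 2.37%). Nos1ap, whose protein binds neuronal nitric oxide synthase, had values opposite to those of Nos1, at 24.5 ± 8.07 CPM (mean ± SD, n = 4) in KD and 52.2 ± 25.4 CPM (mean ± SD, n = 5) in CD females (log2 fold change -1.14, FDR 0.206 by edgeR). Gucy1a3, a subunit of the guanylate cyclase that nitric oxide activates, had a KD vs. CD log2 value of 0.52 in females, and the reelin receptor gene Lrp8 one of -0.38. In males Prkg2 and Prkg1, which encode the kinases activated by cyclic GMP, had log2 fold changes of 0.74 and 0.40 (unadjusted p = 0.0123 and 0.0321 by edgeR). Of 12 genes for processing and storing peptides, 4 had an unadjusted p under 0.05 in females, 2 in each direction (all genes 11.4%), and 0 had one in males (all genes 3.56%). Pcsk2, a convertase that cuts peptide precursors, had a KD vs. CD log2 value of -0.53 in females (FDR 0.278 by edgeR), Scg3 one of -0.27 and Qpct one of 0.50.

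Some of the 10 genes varied together across the interneuron families, and other pairs had r near 0. These correlations are Pearson's r of log2 CPM over 20 libraries after the means of group and library series were removed, and the points share libraries and depth. Libraries far from their group, such as KD female E227 and CD female E249, weigh heavily on r, which was not computed without them. Vip and Cck had r = 0.75, Pvalb and Npy 0.76, Calb1 and Reln 0.79, and Nos1 and Reln 0.79. Negative values were found for Crh and Reln (-0.68), Pvalb and Calb2 (-0.67), and Pvalb and Calb1 (-0.66). Sst and Pvalb, the markers of the families that share a developmental origin, had r = 0.08, and Nos1 and Sst, which are found together in long-range cells, had r = 0.27.

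**Figure D5:**
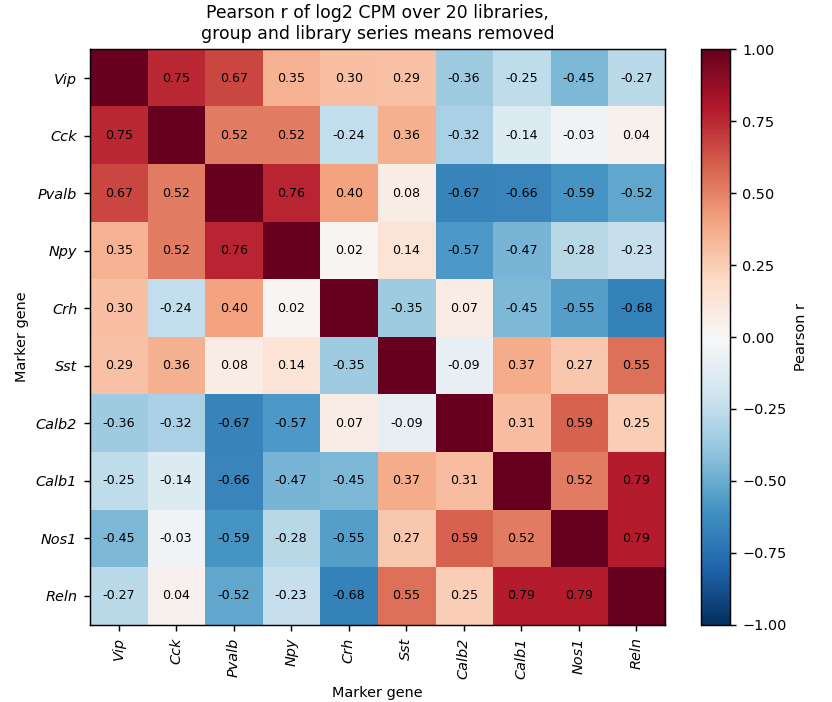
Pearson's r between the 10 genes (both axes) over 20 libraries, with the means of group and library series removed. Vip, Cck, Pvalb and Npy form one set of positive values from 0.35 to 0.76, and Calb1, Nos1 and Reln another from 0.52 to 0.79.

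Several of the 10 followed the scores of other cell types, a score being the mean z-score of the log2 CPM of a list. Vip had r = -0.92 with the basal forebrain cholinergic list, -0.88 with the striatal list and 0.83 with the cortical excitatory list. Cck had r = 0.89 and Pvalb 0.77 with the cortical excitatory list. The cholinergic sums of KD female E227 and CD female E249 were 2.87 and 90.8 CPM. The other KD females had 111 to 152 CPM and the other CD females 1.11 to 3.28 CPM. How far E227 and E249 carry these values of r was not tested. Calb2 followed the astrocyte list (r = 0.85), and Calb1 and Reln ran against the oligodendrocyte list (r = -0.75 and -0.66). Nos1 had r = 0.71 with the hippocampal list and 0.18 with the striatal list. The highest hippocampal sum and the highest Nos1 value were both those of KD male E64. The part of these cell types in the values of the 10 genes was not tested beyond the covariate fits.

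Markers of other regions were compared between the diets in the same fit. In females 9 of 10 striatal markers had higher values on the KD with an unadjusted p under 0.05, with a median log2 fold change of 2.10, and 5 of 9 cortical excitatory markers had lower values at that p, with a median of -0.93. Of all genes, 5.86% were higher and 5.5% lower, and the median was 0.01. None of either list passed the FDR threshold in females by edgeR. In males the medians were 1.15 and -0.21, and 1 of the 10 striatal and 0 of the 9 excitatory markers had an unadjusted p under 0.05 (all genes 3.56%). KD male E59 had a striatal sum of 3297 CPM, while the other 5 KD males had 255.8 to 352 CPM, within the range of the CD males (253.5 to 569 CPM). The other lists were read in males at an unadjusted p under 0.05. Higher on the KD were 5 of 6 choroid plexus (median 2.005), 2 of 6 hippocampal and 1 of 3 hypothalamic markers. Lower was 1 of 5 oligodendrocyte markers (median -0.38). The choroid plexus sum was 2341 CPM in E59, 16.5 to 43.0 CPM in the other KD males and 12.6 to 55.1 CPM in the CD males. In females all 6 cholinergic markers had values above 0 (median 2.41), 2 of them at that p. Also higher in females at that p were 2 of 3 hypothalamic (median 2.18), 1 of 4 thalamic, 1 of 5 astrocyte and 1 of 5 microglial markers. Lower was 1 of 6 hippocampal markers. Only 3 of 8 hypothalamic, 6 of 7 hippocampal and 6 of 7 choroid plexus markers passed the expression filter. The shares of these lists leave out the rest. A marker can pass the filter through the group where it is high, so these shares and medians are a description only. The most abundant markers were Pde10a for striatum (63.3 to 1108 CPM), Slc17a7 for cortical excitatory neurons, Slc5a7 for cholinergic neurons (0.715 to 104 CPM), Fibcd1 for hippocampus (1.03 to 79.4 CPM) and Ttr for choroid plexus (0.603 to 2187 CPM). Slc1a3 led the astrocyte list (584 to 1003 CPM) and Flt1 the endothelial list (29.6 to 56.2 CPM). The thalamic list was led by Slc17a6 (25.3 to 150.1 CPM) and the hypothalamic list by Trh (0.159 to 25.0 CPM). Markers with 0 counts in at least 1 library included Slc18a3 and Lhx8 for cholinergic neurons, Iyd for hippocampus, Folr1 and Kcne2 for choroid plexus, and Avp, Oxt, Pmch, Hcrt, Pomc and Gal for hypothalamus.

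The variation between mice of a group differed by gene. The biological coefficient of variation estimated by edgeR was 0.65 for Calb2, 0.49 for Pvalb, 0.41 for Nos1, 0.37 for Vip, 0.36 for Cck and 0.31 for Reln, compared with a median of 0.19 over all genes tested. Sst (0.20), Calb1 (0.21), Npy (0.22) and Crh (0.28) were closer to that median. Among the genes of similar abundance, 99.5% had a lower value than Calb2 and 99.2% a lower value than Pvalb. This share was 96.6% for Nos1, 98.1% for Vip, 97.7% for Cck and 97.9% for Reln. It was 89.0% for Calb1, 80.5% for Npy, 73.8% for Sst and 67.7% for Crh.

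For each of the 10, the genes with the highest r over the 20 libraries, group and series means removed, were looked up among all genes tested, and they are named as a description. Pvalb was most like Tbc1d30, Hapln4 and Kazald1 (r = 0.96 for each), Vip like A830082K12Rik, Glt8d2 and Pdzrn3 (0.94 to 0.96), and Cck like Wnt9a, Mpped1 and 2510003E04Rik (0.94 to 0.95). Nos1 was most like Igf2r, Dpysl5 and Dpp6 (0.92 to 0.95), and Reln like Stpg1, Tmem132e and Hrk (0.86 to 0.90). Npy was most like Camkk2, Lynx1 and Hgsnat (0.90 to 0.91), Calb2 like Adamts9, Fstl1 and Ripk1 (0.88 to 0.91), and Calb1 like Nr2f2, Mmd2 and Cyp26b1 (0.83 to 0.84). Crh was most like Pcgf5, A230070E04Rik and Cdh7 (0.84 to 0.88), and Sst like Lrrtm1, 9130401M01Rik and Chst8 (0.82 to 0.87). None of the 10 was among the 3 most like genes of another.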

How the data were processed

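RNA-seq was measured in 20 cortex libraries. The authors aligned reads to mm10 with STAR and deposited raw counts of reads per gene, unnormalised. The strand counted and the gene annotation are not given in the sources used here. CPM and log2 CPM (prior count 2) were computed from these counts. Of 23413 gene names, 21777 matched GENCODE (GRCm38), the source of coordinates and exon lengths, and promoter sequences were those of RefSeq. In R 4.3.3, edgeR 4.0.16 was run on the 15660 genes that passed filterByExpr, with upper-quartile normalization, terms for group and library series, and quasi-likelihood F tests. Genes were called at FDR 0.1 and a 1.5-fold change. The paper's RUVg controls and number of factors are not given in the sources used here, so the series took its place and RUVg, written anew with all but 5000 genes as controls, was an alternative. Single genes were also compared by two-sided exact permutation over all splits of a sex, without regard to library series. On counts simulated for the diet effect in females, 69.5% of 200 genes changed 2-fold were recovered, with 9 unchanged genes called. The 10 genes, the lists and the alternatives were chosen with earlier results of these data known. Named genes are the 10, up to 3 per list by smallest p in females and in males, the 3 most alike genes of each, and the most abundant gene of each cell type list. A few genes that this rule names are not reported here. Those outside this rule (Otof, Gcnt4, F930015N05Rik, Gm26995, Gm10475, Ddx3y, and markers at 0) were named after their values or annotation were seen. Alternatives were TMM, DESeq2's size factors, other filters and thresholds, no series term, each sex or series alone, marker scores as covariates, the likelihood ratio test, DESeq2 1.42.0, and leaving out libraries.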

Additional observations from a re-analysis of the deposited data

Results flagged for a closer look

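Each of the 10 genes was examined in each of the 4 groups for a library far from the others, by the gap to its nearest neighbour divided by the range of the group (Dixon's criterion at 95%). Of 40 groups, 5 were flagged, where chance gives about 2. KD female E227 stood above the other KD females for Pvalb (67.9 CPM, ratio 0.906), Vip (83.2 CPM, ratio 0.898) and Cck (105 CPM, ratio 0.986). CD female E249 stood below the other CD females for Sst (19.1 CPM, ratio 0.711). KD male E64 stood above the other KD males for Nos1 (51.6 CPM, ratio 0.719).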

How the results depend on the processing

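As reported, 7 genes were called in females, 0 in males, 42 for the averaged effect, 0 for the interaction and 21 for females against males, with 0, 0, 1, 0 and 0 of the 10 interneuron genes. The number of calls depended on the mice and on the test, while the averaged log2 fold change of Nos1 stayed above 0 in every setting run. The depth of series 2 was lower, and how far this limits genes with low counts, such as Crh and Nos1, was not tested. The fits without KD males E64 and E254, and without these and E59, were chosen after seeing the data. The fit without KD female E227 and CD female E249 also left out libraries picked by their values. No paired analysis was possible because no replicate number is shared between the groups. The cause of the changes below was not tested.

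Under the cortical excitatory score as covariate, calls among all genes numbered 7 for females against males, 0 in females and 0 averaged, and among the 10 genes they numbered 0 averaged, and the log2 fold change was -0.0813 for Calb1 in females, -0.65 for Calb2 in females, 1.02 for Nos1 averaged, 0.33 for Pvalb in females and 0.0411 for Vip for females against males. Under library series 2 alone, calls among all genes numbered 5 for females against males, 0 in females and 0 averaged, and among the 10 genes they numbered 0 averaged, and the log2 fold change was -0.0445 for Calb1 in females, -0.65 for Calb2 in females, -0.19 for Crh in females, 0.88 for Nos1 averaged, -0.0394 for Sst in females, -0.18 for Sst in males and -0.11 for Sst averaged. Under the striatum score as covariate, calls among all genes numbered 0 in females and 0 averaged, and among the 10 genes they numbered 0 averaged, and the log2 fold change was -0.23 for Calb2 in females, 0.0438 for Crh averaged and 1.12 for Nos1 averaged. Without KD male E59, KD male E64 and KD male E254, calls among all genes numbered 9 for females against males, 23 in females and 1 averaged, and among the 10 genes they numbered 0 averaged, and the log2 fold change was 0.22 for Crh in males, 0.14 for Crh averaged, 0.90 for Nos1 averaged, -0.15 for Sst in males, -0.0456 for Sst averaged and 0.0807 for Vip in males. Without KD male E64 and KD male E254, calls among all genes numbered 8 for females against males and 4 averaged, and among the 10 genes they numbered 0 averaged, and the log2 fold change was 0.0365 for Crh in males, 0.0495 for Crh averaged, 0.96 for Nos1 averaged, -0.15 for Sst in males and -0.0448 for Sst averaged. Under no filter, calls among all genes numbered 12 in females and 28 averaged, and among the 10 genes they numbered 0 averaged, and the log2 fold change was 1.21 for Nos1 averaged. Under RUVg with 2 factors, calls among all 15660 genes numbered 11 for females against males, 267 in females and 352 averaged, and among the 10 genes they numbered 3 in females and 3 averaged, and the log2 fold change was -0.0264 for Sst in females and -0.00848 for Sst averaged. Without KD female E227 and CD female E249, calls among all 15943 genes numbered 516 for females against males, 1953 (12.2%) in females, 1249 (7.83%) averaged and 568 for the interaction, and among the 10 genes they numbered 2 for females against males, 5 in females, 7 averaged and 2 for the interaction, and the log2 fold change was -0.0766 for Sst in females and -0.00549 for Sst averaged. Under DESeq2's Wald test, calls among all 15660 genes numbered 212 for females against males, 253 (1.62%) in females, 351 (2.24%) averaged and 1 for the interaction, and among the 10 genes they numbered 2 in females and 4 averaged. Under FDR 0.05 and no fold minimum, calls among all genes numbered 13 for females against males, 2 in females and 3 averaged, and among the 10 genes they numbered 0 averaged. Under RUVg with 1 factor, calls among all genes numbered 9 for females against males, 21 in females and 157 averaged. Under a filter of at least 10 counts in every library, calls among all genes numbered 4 for females against males. Under the edgeR likelihood ratio test, calls among all 15660 genes numbered 286 for females against males, 220 (1.4%) in females, 370 (2.36%) averaged and 1 for the interaction, and among the 10 genes they numbered 2 in females and 4 averaged. Under library series 1 alone, calls among all 15966 genes numbered 76 for females against males, 865 (5.42%) in females, 886 (5.55%) averaged and 14 for the interaction, and among the 10 genes they numbered 1 for females against males, 3 in females, 6 averaged and 1 for the interaction. Under an unadjusted p under 0.05, calls among all 15660 genes numbered 2122 (13.6%) for females against males, 1780 (11.4%) in females, 557 (3.56%) in males, 2169 (13.9%) averaged and 335 (2.14%) for the interaction, and among the 10 genes they numbered 3 for females against males, 4 in females, 3 in males, 7 averaged and 1 for the interaction. Under females fitted alone, calls among all genes numbered 1 in females. Under no library series term, calls among all genes numbered 4 in females.

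With 1 library left out in turn, calls among all genes ranged over 8 to 813 for females against males, 0 to 1046 (6.66%) in females, 2 to 791 (5.04%) averaged, 0 to 41 for the interaction, and among the 10 genes over 0 to 2 for females against males, 0 to 5 in females, 0 to 5 averaged, 0 to 1 for the interaction. The averaged log2 fold change of Nos1 ranged from 1.03 to 1.32. Values that changed sign, none of which was called, ranged over -0.0212 to 0.22 for Calb1 in females, -0.0767 to 0.89 for Calb2 in females, -0.0263 to 0.20 for Crh in females, -0.0414 to 0.15 for Sst in females, -0.11 to 0.13 for Sst in males, -0.0252 to 0.11 for Sst averaged.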
